A study of Mus musculus with 6 samples.

Results

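Iron uptake, storage and sensing were followed through 10 genes: Tfrc, Slc11a2, Steap3, Slc25a37, Slc40a1, Fth1, Ftl1, Ireb2, Aco1 and Ncoa4. They were taken by name from the 55487 genes of the count table, and all 10 were found once each under GENCODE M21 symbols. The cells were megakaryocyte-erythroid progenitors (MEP), the marrow precursors of platelets and red cells. Wild type C57BL/6 mice, 8 weeks old, were the source in both groups, and bulk libraries of polyadenylated RNA were made from 3 control samples and from 3 samples taken after 6 h without food. The labels give no sex, no number of animals per library and no sort gate, so p-values measure the spread between these libraries, which may be partly technical.

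Developing red cells import iron bound to transferrin, which enters the cell with its receptor (Tfrc). In the endosome the iron is reduced by Steap3 and carried into the cytosol by Slc11a2 (DMT1), and Slc25a37 (mitoferrin 1) carries it into mitochondria for haem and iron-sulfur cluster synthesis. Ferritin, a shell of heavy (Fth1) and light (Ftl1) chains, stores the surplus, Ncoa4 delivers ferritin to lysosomes for release of its iron, and Slc40a1 (ferroportin) exports iron from the cell. The iron regulatory proteins, encoded by Aco1 and Ireb2, bind a hairpin called the iron-responsive element when iron is scarce. Bound near the start of an mRNA, they block its translation, and bound in the tail of the Tfrc mRNA, they protect it from decay.

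The hairpins are shown because they tell which of these mRNAs carry the element through which iron can set transcript stability or translation, and only the first of these can be seen in counts of RNA. GENCODE M21 transcripts (GRCm38) were searched on the sense strand for a C, then any 5 bases, then CAGTG and 6 more bases, of which at least 4 of the 5 on either side of the 6-base loop could pair (G-T pairs allowed). Of 21901 protein-coding genes, 10.7% held a match somewhere in a transcript and 1.34% held one with all 5 bases paired. Among the 10 iron genes, 5 held a match and 4 of these had all 5 bases paired. The 8 matches follow 5′ to 3′, with 5 further bases on each side, and capitals mark the bulged C and the 6 bases of the loop.
Fth1, 5′ UTR, chr19:9982733-9982759, plus strand: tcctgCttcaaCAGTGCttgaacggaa
Ftl1, 5′ UTR, chr7:45459780-45459806, minus strand: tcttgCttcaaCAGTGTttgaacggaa
Slc40a1, 5′ UTR, chr1:45925466-45925492, minus strand: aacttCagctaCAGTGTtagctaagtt
Slc11a2, 3′ UTR, chr15:100395154-100395180, minus strand: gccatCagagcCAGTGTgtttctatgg
Tfrc, 3′ UTR, chr16:32631220-32631246, plus strand: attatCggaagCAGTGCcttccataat
Tfrc, 3′ UTR, chr16:32631599-32631625, plus strand: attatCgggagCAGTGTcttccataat
Tfrc, 3′ UTR, chr16:32631664-32631690, plus strand: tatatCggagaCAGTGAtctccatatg
Tfrc, 3′ UTR, chr16:32631711-32631737, plus strand: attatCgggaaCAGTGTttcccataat
Both ferritin genes and Slc40a1 carried the hairpin before the coding sequence, and Tfrc and Slc11a2 carried it after. The Slc11a2 match paired at 4 of 5 bases. Each match lay in 1 annotated coding transcript, except that of Fth1, which lay in 4 of 5, while Ftl1 has 2 coding transcripts, Tfrc 3, Slc40a1 4 and Slc11a2 6. The table sums all transcripts of a gene, so for all 5 genes forms with and without the hairpin cannot be told apart. No match was found in Steap3, Slc25a37, Ireb2, Aco1 or Ncoa4, which says only that no such hairpin is spelled in their annotated transcripts.

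Library totals were 22445970 to 30246110 counts in the control and 12797144 to 18225191 in the fasted group. Genes of odorant and vomeronasal receptors (1974 with their pseudogenes), which are silent in blood cells, received 8.94 to 14.7 counts per kilobase in control and 14.2 to 15.97 in fasted libraries, so this background took a larger share of the shallower fasted libraries. The fit described first was therefore made on the 10646 genes whose mean count was at least 5 times that background, and values in CPM are relative to the summed counts of these genes after TMM scaling. All 10 iron genes passed, from Ireb2 at 7.46 times the background and Slc25a37 at 9.43 to Fth1 at 798 and Ftl1 at 961. Of 10 genes that mark these progenitors, such as Gata1, Klf1 and Kit, 9 passed and their summed level was 1532 to 3389 CPM. All 10 granulocyte and monocyte markers passed as well, and their sum was 3572, 11790 and 18075 CPM in control libraries 1, 2 and 3 and 4237, 2679 and 1444 CPM in fasted libraries 1, 2 and 3. Of 10 macrophage markers, 1 passed (Csf1r), and none of the markers had 0 counts in all libraries. The sums of 10 lymphocyte markers (3 passed) were 71.6 to 111 CPM in control and 129 to 212 CPM in fasted libraries. Those of 10 megakaryocyte and platelet markers (6 passed) were 469.9 to 608 and 314 to 469.7 CPM. On both lists the groups did not overlap, as for 27.3% of single genes tested. No background was subtracted from these sums, and it took a larger share of the fasted libraries. Late erythroid markers (8 of 10 passed) summed to 637 to 979 CPM in control and 872 to 1236 CPM in fasted libraries, which overlapped. The part of these cells in the values that follow was not tested. In bulk RNA, fewer cells of a type and less RNA per cell cannot be told apart.

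Ferritin transcripts stood far above the rest of the iron genes. Per kilobase of merged exons, Ftl1 averaged 706 CPM and Fth1 594 CPM over the 6 libraries, at percentiles 99.6 and 99.5 of all 10646 genes. The next was Tfrc at 36.6 CPM per kilobase (percentile 81.9), followed by Steap3 at 31.8, Aco1 at 20.2, Slc11a2 at 17.3, Ncoa4 at 13.6, Slc40a1 at 8.05, Slc25a37 at 6.91 and Ireb2 at 5.61 (percentile 21.1). The gap between Fth1 and Tfrc was the only step in this order at which the ranges over the 6 libraries did not overlap. Tfrc exceeded Steap3 in 5 of 6 libraries, Steap3 exceeded Aco1 in 6 of 6, and Slc40a1 exceeded Slc25a37 in 4 of 6.

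**Figure D1:**
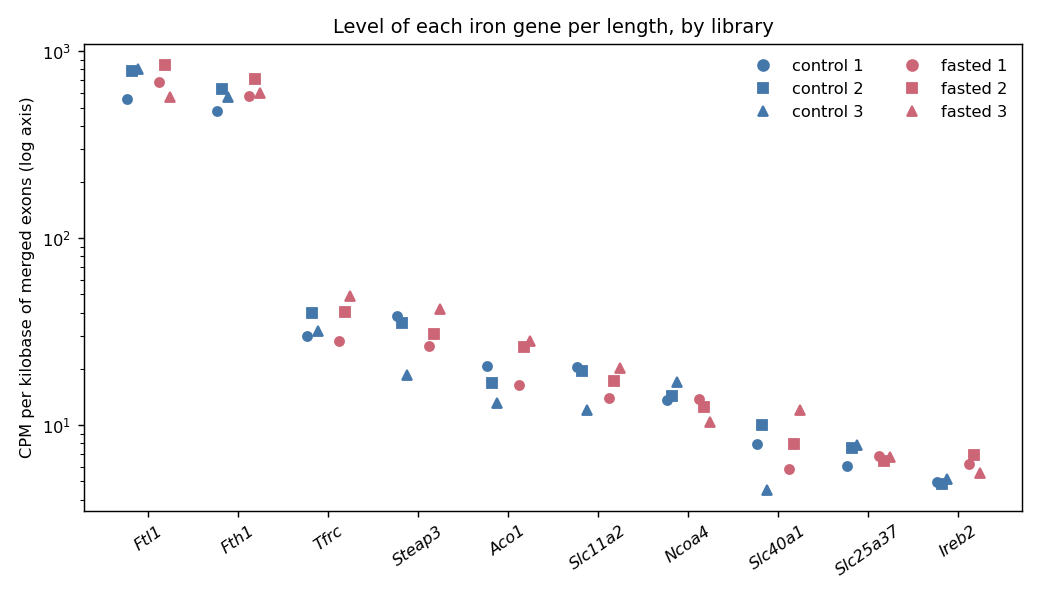
Level of each iron gene per length. The vertical log axis gives CPM per kilobase of merged exons, each point is 1 library (blue control, red fasted), and genes are ordered by their mean. Ftl1 and Fth1 lie between 477 and 843 CPM per kilobase in every library, above all libraries of the other 8 genes, whose highest value is 48.9.

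Which ferritin chain came first depended on the length used. The merged exons of Fth1 span 3469 bases, while its first annotated transcript has 929, against 1340 and 968 bases for Ftl1. Divided by the length of the first transcript, Fth1 had 2217 and Ftl1 977 CPM per kilobase. Ftl1 shares 109 exonic bases with the same-strand gene model Gm22133, which held 0 counts. It shares 355 with the opposite-strand Gm10252, which held 0 to 7 per library. How reads over shared bases were counted is not given in the sources used here. Fth1 and Ftl1 together took 0.222% to 0.309% of all counts in a library. Annotated copies of both genes also held counts, of which Ftl1-ps1 had the most (524 to 1125 per library, against 10094 to 24821 for Ftl1), and reads shared with such copies could have been placed in either.

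In the fit of genes above background, none of the 10 iron genes passed the test of a difference between fasted and control libraries. edgeR's quasi-likelihood test passed 0 of 10646 genes (0%) at a Benjamini-Hochberg adjusted p under 0.05, and 0 of the 10 iron genes. At an unadjusted p under 0.05 it had 2114 genes (19.9%) and again 0 iron genes. DESeq2 passed 503 genes (4.72%) and limma-voom 0, and neither passed an iron gene. The iron genes had log2 fold changes (fasted over control) from -0.29 to 0.48 with a median of 0.14, against a median of 0.02 over all genes tested. Groups did not overlap for 1 of the 10 (Ireb2, higher in fasted), while this held for 27.3% of all genes tested.

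**Figure D2:**
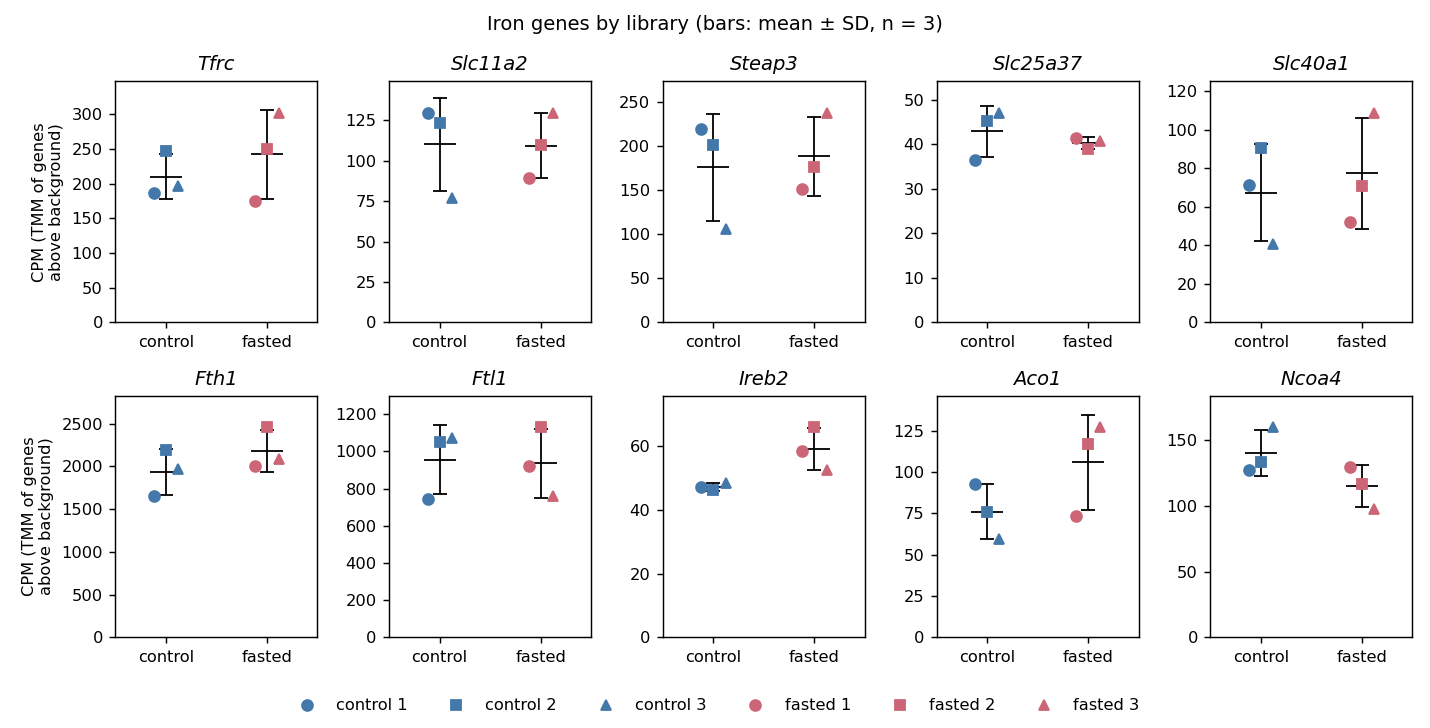
Iron genes in each library. Vertical axes give CPM from 0, points are libraries (circle, square and triangle for replicates 1, 2 and 3), and bars show the mean ± SD of 3 libraries. Control and fasted points overlap in 9 panels, and in the Ireb2 panel the 3 fasted libraries (52.6 to 65.9 CPM) lie above the 3 control libraries (46.1 to 48.6 CPM).

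The import genes varied more between libraries of a group than between the groups. Tfrc, the transferrin receptor gene (ENSMUSG00000022797.16, chr16:32608920-32632794, plus strand), which carries the hairpins in its tail, had 186, 247 and 197 CPM in control libraries 1, 2 and 3 and 175, 251 and 303 CPM in fasted libraries 1, 2 and 3. Fasted library 1 was the lowest and fasted library 3 the highest of all 6, so the fasted group enclosed the control group. The means were 210.05 CPM ± 32.7 and 243 CPM ± 64.2 (SD, n = 3 each), and the log2 fold change was 0.21 (95% interval -0.25 to 0.67, SE 0.20, edgeR adjusted p 0.583).

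Steap3, the endosomal iron reductase gene (chr1:120190757-120272705, minus strand), had 219, 202 and 106 CPM in control and 151, 176 and 238 CPM in fasted libraries 1, 2 and 3. Slc11a2, the endosomal iron carrier gene (chr15:100387898-100425072, minus strand), had 129.8, 124 and 76.9 CPM in control and 89.1, 109.6 and 129.2 CPM in fasted libraries. In both genes control library 3 was lowest and fasted library 1 next, and the groups overlapped. Fold changes on the log2 scale were 0.10 (95% interval -0.55 to 0.75, SE 0.28) for Steap3 and -0.01 (95% interval -0.50 to 0.48, SE 0.22) for Slc11a2, and the edgeR adjusted p-values were 0.860 and 0.984. The sign of the Steap3 value depended on 1 library: the log2 fold change was -0.17 without control library 3 and -0.10 without fasted library 3. Slc11a2 was at -0.22 without control library 3. Control library 3 had the lowest sum of the progenitor markers (1532 CPM) and the highest sum of the granulocyte and monocyte markers (18075 CPM). The part of either in these values was not tested. Slc11a2 shares 402 exonic bases with the opposite-strand gene Gm5475, which held 78 to 187 counts per library.

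Slc25a37, the mitochondrial iron carrier gene (chr14:69241848-69285112, minus strand), was the most even of the 10, with a highest library 1.29 times the lowest. It had 36.4, 45.2 and 47.1 CPM in control and 41.4, 38.8 and 40.6 CPM in fasted libraries 1, 2 and 3. Fasted libraries lay between control library 1 and control library 2. On the log2 scale fasted over control was -0.09 (95% interval -0.45 to 0.27, SE 0.16, edgeR adjusted p 0.771). The background rate over its length came to 7.39% of its counts in control and 16.8% in fasted libraries on average. It shares 381 exonic bases with an opposite-strand gene model that held 0 counts, and whether counting used strand is not given in the sources used here.

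Transcripts of ferritin, the storage protein, also showed no difference past the test. Fth1 (ENSMUSG00000024661.7, chr19:9980598-9985098, plus strand) had 1653, 2189 and 1974 CPM in control and 1999, 2457 and 2086 CPM in fasted libraries 1, 2 and 3. Control library 1 was lowest and fasted library 2 highest, and control library 2 lay above 2 of the fasted libraries. The means were 1939 CPM ± 269.8 and 2181 CPM ± 243 (SD, n = 3 each), and the log2 fold change was 0.17 (95% interval -0.17 to 0.51, SE 0.15, edgeR adjusted p 0.5498).

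Ftl1 (ENSMUSG00000050708.16, chr7:45457944-45459884, minus strand) had 742, 1051 and 1074 CPM in control and 919, 1129 and 761 CPM in fasted libraries 1, 2 and 3. The groups overlapped across nearly their whole range, from control library 1 to fasted library 2. Its log2 fold change was -0.03 (95% interval -0.46 to 0.40, SE 0.19, edgeR adjusted p 0.945). At the depth of these genes, with 10094 or more counts of Ftl1 in each library, counting error was small beside the spread between libraries.

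Ncoa4, the ferritin receptor of autophagy (ENSMUSG00000056234.15, chr14:32159865-32179855, plus strand), had the lowest fold change of the 10. It had 127, 133 and 159.8 CPM in control and 129.99, 117 and 97.9 CPM in fasted libraries 1, 2 and 3. Fasted libraries 2 and 3 lay below all control libraries, and fasted library 1 lay between control libraries 1 and 2. The means were 140.1 CPM ± 17.4 and 115 CPM ± 16.1 (SD, n = 3 each), and the log2 fold change was -0.29 (95% interval -0.62 to 0.054, SE 0.15, edgeR adjusted p 0.321). From low to high, its 6 libraries stood in the order fasted 3, fasted 2, control 1, fasted 1, control 2 and control 3. The summed granulocyte and monocyte markers given above stood in the same order. Orders were listed for all 10 iron genes and every marker list, and this was the only exact match. The part of granulocytes and monocytes in the Ncoa4 value was not tested.

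Ncoa4 was also the 1 iron gene whose call depended on the scaling. When all 36508 genes that pass filterByExpr were tested with TMM factors of those genes, it came to -0.78 on the log2 scale (SE 0.23) and passed, at an edgeR adjusted p of 0.0473. In that fit 4.97% of genes passed, 3.82% as lower in fasted libraries, and 1 of the 10 iron genes. This call was lost when control library 2, fasted library 1 or fasted library 3 was left out (edgeR adjusted p 0.115, 0.162 and 0.202). Under those factors all 10 iron genes were below 0, from -0.78 to -0.068, with a median of -0.41, while the median of the 10646 genes above background was -0.50 in the same fit. Groups did not overlap for 2 of the 10 on that scale (Slc25a37 and Ncoa4, lower), against 34.9% of all genes. With the 36508 genes kept but scaled by the genes above background, 14.3% of genes passed, 13.6% as higher, and none of the 10. With no filter on low counts, 5.38% of genes passed, 4.19% as lower, and again Ncoa4 alone of the 10.

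**Figure D3:**
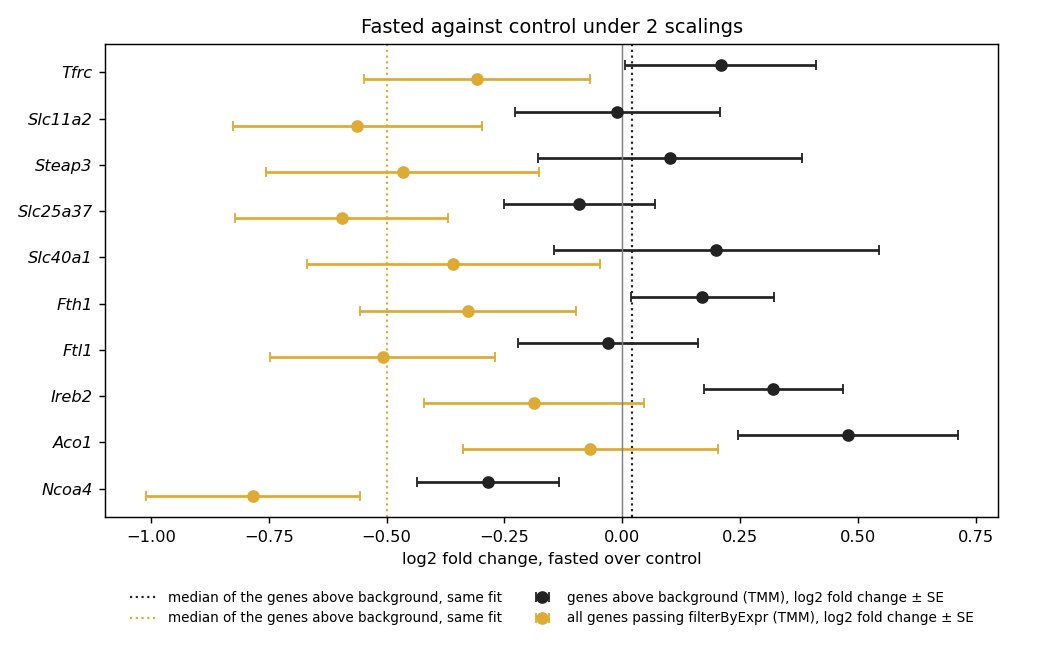
Log2 fold change (fasted over control, ± SE) of each iron gene under 2 scalings. Black points come from the fit of genes above background and yellow points from the fit of all genes passing filterByExpr, and dotted lines give the median of the 10646 genes above background in each fit (0.02 and -0.50). Every iron gene moves to the left with that median, and Ncoa4 is lowest in both fits (-0.29 and -0.78).

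Slc40a1, the iron exporter gene (ENSMUSG00000025993.10, chr1:45908068-45926523, minus strand), spread most between libraries, with a highest library 2.68 times the lowest. It had 71.1, 90.4 and 40.7 CPM in control and 52.2, 71.03 and 109 CPM in fasted libraries 1, 2 and 3. The lowest was control library 3 and the highest fasted library 3. Between these, fasted libraries 1 and 2 both lay below control libraries 1 and 2. Fasted over control came to 0.20 on the log2 scale (95% interval -0.60 to 1.00, SE 0.34, edgeR adjusted p 0.769). Without control library 3 the value was -0.07, and without fasted library 3 it was -0.13. Of 10 markers of macrophages, which also express this exporter, 9 were below 5 times the background. The sum of all 10 was 68.0, 103.9 and 148 CPM in control and 144, 103.8 and 90.7 CPM in fasted libraries 1, 2 and 3. The part of such cells in this value was not tested.

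The iron sensors had the highest fold changes of the 10, and neither passed the test. Ireb2, which encodes iron regulatory protein 2 (ENSMUSG00000032293.8, chr9:54863789-54912530, plus strand), had 47.2, 46.1 and 48.6 CPM in control and 58.7, 65.9 and 52.6 CPM in fasted libraries 1, 2 and 3. All fasted libraries were above all control libraries, as for 14.4% of all genes tested. With library totals as the only scaling 2 of the 10 did not overlap (Ireb2 higher and Ncoa4 lower, 27.7% of all genes). With no filter on low counts 3 of the 10 did not (Slc25a37, Ftl1 and Ncoa4, all lower, 27.1% of all genes). There Ireb2 overlapped, at -0.22 on the log2 scale. It also overlapped at 3 times the background and in the fit of all genes passing filterByExpr. Among genes at 10 times the background, where Ireb2 and Slc25a37 are not tested, 0 of 8 did not overlap (21.4%). The means were 47.3 CPM ± 1.23 and 59.1 CPM ± 6.67 (SD, n = 3 each), and the log2 fold change was 0.32 (95% interval -0.0093 to 0.65, SE 0.15, edgeR adjusted p 0.264). Ireb2 lay nearest to the background: the receptor rate over its 9479 exonic bases came to 10.8% of its counts in control and 18.3% in fasted libraries on average. With that background subtracted, it came to 0.28 on the log2 scale (SE 0.16), at an edgeR adjusted p of 0.412.

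Aco1, which encodes iron regulatory protein 1, an aconitase when it holds an iron-sulfur cluster (ENSMUSG00000028405.9, chr4:40143081-40198338, plus strand), had 92.7, 76.02 and 59.3 CPM in control and 73.4, 117 and 127 CPM in fasted libraries 1, 2 and 3. Fasted libraries 2 and 3 were above all control libraries, and fasted library 1 was below 2 of them. The means were 76.01 CPM ± 16.7 and 106 CPM ± 28.5 (SD, n = 3 each), and the log2 fold change was 0.48 (95% interval -0.05 to 1.01, SE 0.23, edgeR adjusted p 0.289). In the fit of all genes passing filterByExpr, Ireb2 and Aco1 were at -0.19 and -0.068, still the highest of the 10.

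Ratios of 2 iron genes within a library do not depend on any scaling between libraries, and 6 of them were compared. Differences of mean log2 ratios were tested by exact permutation, two-sided, in which 3 against 3 libraries cannot give a p below 0.1. Tfrc per Fth1, import over storage in counts per kilobase, was 0.0631, 0.0634 and 0.0559 in the control and 0.0491, 0.0572 and 0.0814 in the fasted libraries 1, 2 and 3. The fasted libraries lay on both sides of the control libraries, and the mean log2 ratio differed by 0.01 (exact permutation p = 1.0).

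Ncoa4 per Fth1 showed the largest of the 6 differences. The ratio was 0.0285, 0.0226 and 0.02998 in the control and 0.0241, 0.0176 and 0.0174 in the fasted libraries 1, 2 and 3, and the mean log2 ratio was -5.22 ± 0.22 in control and -5.68 ± 0.27 in fasted libraries (SD, n = 3 each). Fasted libraries 2 and 3 were below all control libraries, fasted library 1 was above control library 2, and the difference of -0.46 had an exact permutation p of 0.2. Ftl1 per Fth1, the light to heavy chain ratio, was 1.16, 1.24 and 1.41 in the control and 1.19, 1.19 and 0.944 in the fasted libraries (log2 difference -0.20, exact permutation p = 0.3). Slc40a1 per Fth1, Ireb2 per Aco1 and Slc25a37 per Tfrc differed by 0.04, -0.15 and -0.27 on the log2 scale (exact permutation p = 1.0, 0.7 and 0.4), and by -0.058, -0.25 and -0.40 with background subtracted. None of the 6 ratios separated the groups, and adjusted over the 6 the smallest Benjamini-Hochberg p was 0.8.

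**Figure D4:**
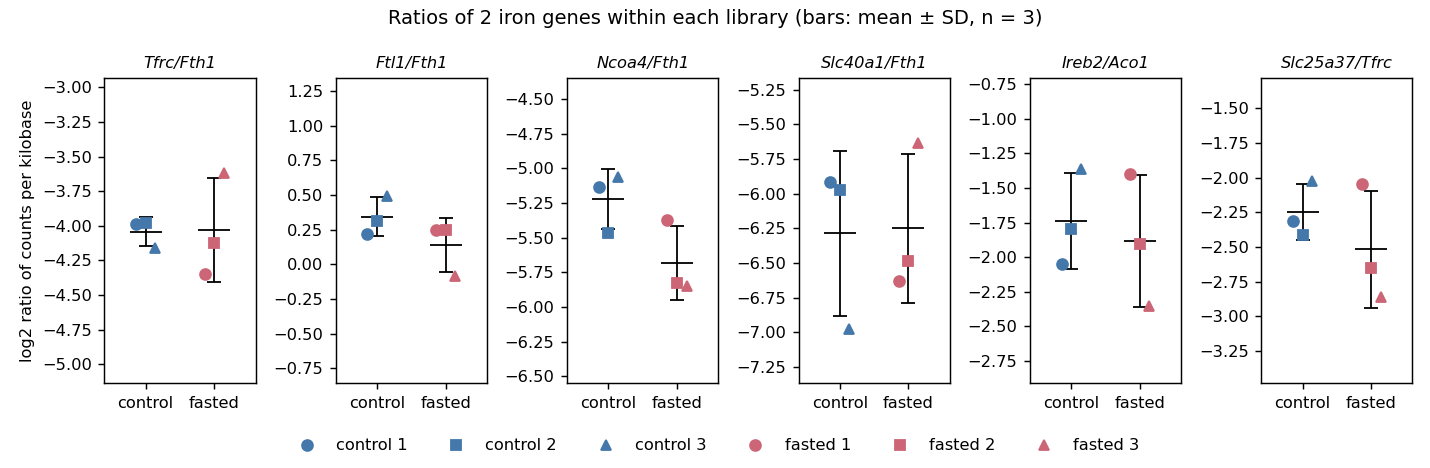
Log2 ratio of counts per kilobase of 2 iron genes in each library. Points are libraries and bars the mean ± SD of 3, and each panel spans the same number of log2 units around its own mean. Control and fasted libraries overlap in all 6 panels, and Ncoa4 per Fth1 has the largest distance between means (-5.22 and -5.68).

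Of 47 other genes of iron handling, 26 were above background, and none of these passed in that fit (edgeR, smallest adjusted p 0.143). At an unadjusted p under 0.05 there were 3 of the 26, against 19.9% of all genes tested, and 11 of the 26 were above 0 and 15 below, with a median log2 fold change of -0.02. Groups did not overlap for 7 of the 26 (2 higher and 5 lower in fasted libraries), against 27.3% of all genes tested. The 21 of the 47 that were not tested included the hormone genes Hamp and Erfe. Among the 8 tested uptake and endosome genes, 3 were above 0 and 5 below, with log2 fold changes from -0.49 to 0.25. Of the 6 tested storage and cytosolic genes 2 were above 0 (-0.57 to 0.46), of the 4 mitochondrial genes 1, of the 3 export genes 3 (0.0033 to 0.32) and of the 3 sensing genes 1 (-0.46 to 0.54). Alas2, whose mRNA is known to carry the hairpin and which encodes the first enzyme of haem synthesis in red cells, had a value of 0.51 (95% interval -0.32 to 1.34, SE 0.37, edgeR adjusted p 0.456). Its groups overlapped, and it was at 0.067 in the fit of all genes passing filterByExpr.

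Hmox2, the constitutive haem oxygenase that frees iron from haem, had 65.1, 65.2 and 72.9 CPM in control and 51.4, 45.2 and 40.4 CPM in fasted libraries 1, 2 and 3. All fasted libraries were below all control libraries, as for 12.9% of all genes tested. Fasted over control was -0.57 on the log2 scale (SE 0.15), at an edgeR adjusted p of 0.143. DESeq2 passed it on the same genes (-0.59, adjusted p 0.0237), the only one of the 26 it passed, and so did edgeR on all genes passing filterByExpr (-1.08, adjusted p 0.0277). In the latter fit the call was lost on leaving out control library 2, or fasted library 1 or 3 (edgeR adjusted p 0.0587, 0.0879 and 0.181).

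Herc2, a ubiquitin ligase that binds Ncoa4 protein, had 54.2, 57.7 and 56.8 CPM in control and 81.9, 73.3 and 77.2 CPM in fasted libraries 1, 2 and 3. Fasted libraries were all above control libraries, by 0.46 on the log2 scale (SE 0.13), at an edgeR adjusted p of 0.148. Background at the receptor rate came to 15.4% of its counts in control and 23.4% in fasted libraries, and the value was 0.40 (edgeR adjusted p 0.236) with background subtracted. In the fit of all genes passing filterByExpr it was -0.06.

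Hif1a, the gene of an oxygen-regulated transcription factor, had 63.3, 49.6 and 59.4 CPM in control and 44.3, 48.4 and 32.8 CPM in fasted libraries 1, 2 and 3. Trf, the transferrin gene, had 126, 139 and 174 CPM in control and 154, 88.8 and 69.0 CPM in fasted libraries. Hif1a did not overlap between the groups and Trf did. Their log2 fold changes were -0.46 (SE 0.19) and -0.49 (SE 0.28), and the edgeR adjusted p-values 0.228 and 0.359. With Hmox2 they were the 3 of 47 that passed when all genes passing filterByExpr were tested, all as lower (Hif1a -0.97, Trf -0.99, edgeR adjusted p 0.0408 and 0.0423), where 3.82% of all genes passed as lower. Without fasted library 3 neither passed (edgeR adjusted p 0.186 and 0.187), and neither did without control library 2 (0.0722 and 0.0870). Hif1a was also lost without fasted library 1 (edgeR adjusted p 0.142) and Trf without fasted library 2 (edgeR adjusted p 0.06398).

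Smad4, a mediator of the signals that set hepcidin, Abcb10, a partner of mitoferrin 1, and Fbxl5, which marks iron regulatory protein 2 for destruction when iron is ample, were also among the 8 with the smallest p-values. Their log2 fold changes were 0.54 (SE 0.24), 0.27 (SE 0.16) and -0.24 (SE 0.14), with edgeR adjusted p between 0.258 and 0.386. In the fit of all genes passing filterByExpr they were at 0.036, -0.27 and -0.77, none of them passing, so the sign of Abcb10 turned. Abcb10 was at 0.12 without fasted library 3. Smad4 was higher and Fbxl5 lower in all fasted than in all control libraries, and the groups overlapped for Abcb10. Smad4 lay at 5.6 times the background, close to the limit of 5.

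**Figure D5:**
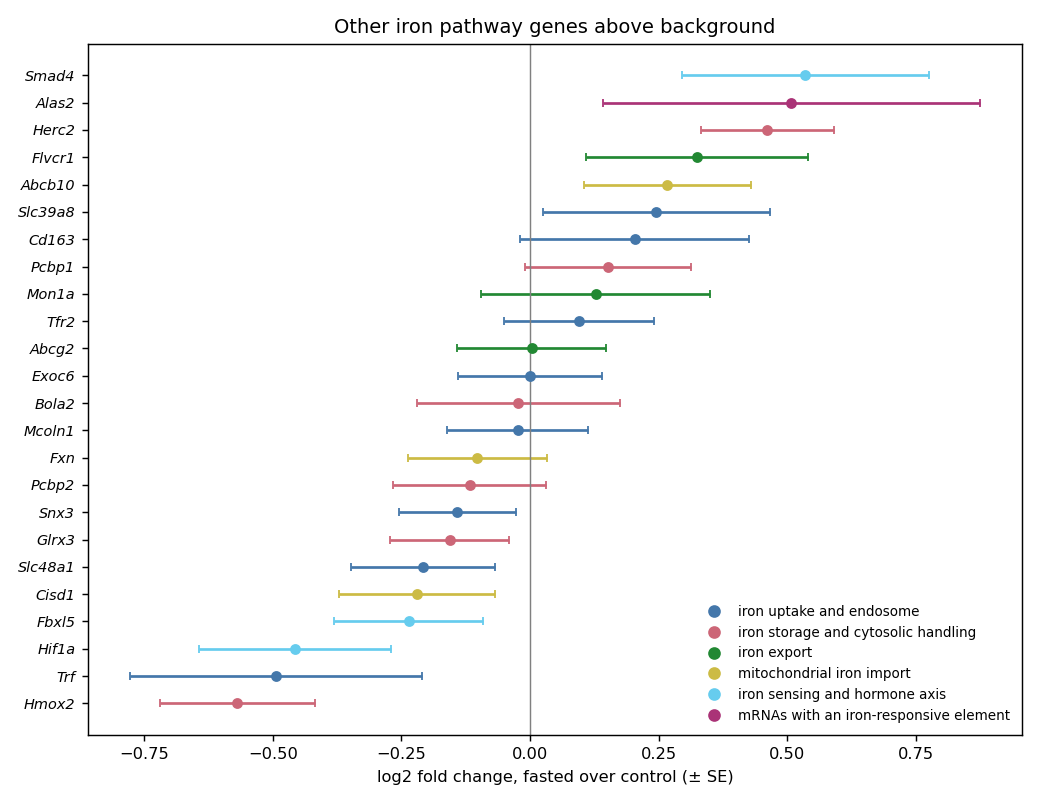
Log2 fold change (fasted over control, ± SE) of other iron handling genes above background, coloured by role and ordered by value. Values run from -0.57 (Hmox2) to 0.54 (Smad4) on both sides of 0, and none passed at an adjusted p under 0.05.

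Likeness over the 6 libraries was listed for named genes other than the iron genes. Of these, Rabggtb, Pdap1, Gorasp1, Polr1c and Phf5a followed the log2 CPM of Tfrc most closely (Pearson r 0.949 to 0.981). Among the same genes, Hist1h3i, Rpl3, Mtf1, Rpl10a and Sec24d followed Fth1 most closely (r 0.976 to 0.998). Of all genes tested, named or not, many came close to this likeness, 60 with an r over 0.9 to Tfrc and 142 to Fth1. These values describe 6 points that share their libraries and depth.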

How the data were processed

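RNA of sorted mouse progenitors was measured in 3 control and 3 fasted libraries. The authors deposited raw counts per gene with each gene's exonic length. The submitters' processing notes name HISAT2 2.2.1, featureCounts 2.0.1 and GRCm38, with no settings. The annotation, strand and read filters are not given in the sources used here. Of 55487 identifiers, 54435 matched GENCODE M21 with version, all with the deposited length.

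The genes, the lists and the background filter of the fit described first were chosen with earlier results of these data known. Genes were kept with filterByExpr (36508) and then at 5 or more times the receptor background (10646), with TMM factors of those genes. Group was the single term of the model, dispersions and the quasi-likelihood fit were robust (edgeR 4.0.16, R 4.3.3), and p-values were Benjamini-Hochberg adjusted over all genes tested, with calls under 0.05. The SE is the log2 fold change divided by the root of F. Likeness used log2(CPM + 0.5). Its lists passed over the 10 iron genes, placeholder symbols (Gm with a number, Rik or clone names) and pseudogene (-ps) symbols. The fit was tested on simulated data. Alternatives were DESeq2 1.42.0, limma-voom 3.58.1, other scalings, filters, background limits of 3 and 10, background subtraction, the replicate block and libraries left out. Of the 47 listed genes, those passing in either fit and the 8 with the smallest p are described by name, and 2 of the listed genes are not reported here. Libraries within a group differed beyond sampling noise.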

Additional observations from a re-analysis of the deposited data

How the results depend on the processing

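No iron gene passed in 12 of 14 other settings. All genes passing filterByExpr and no filter on low counts passed 1 each, Ncoa4 (log2 fold change -0.78 and -0.82), and gave iron gene medians of -0.41 and -0.45, against 0.14. Under these 2 settings the signs turned for Tfrc (-0.31 and -0.34), Steap3 (-0.47 and -0.51), Slc40a1 (-0.36 and -0.40), Fth1 (-0.33 and -0.36), Ireb2 (-0.19 and -0.22) and Aco1 (-0.068 and -0.11), all uncalled. Values near 0 also turned: Steap3 to -0.033 at 3 times the background, Slc11a2 to 0.072 and Ftl1 to 0.043 at 10 times, to 0.024 and 0.046 with background subtracted, to 0.062 and 0.032 with upper-quartile factors, and Slc11a2 to 0.0064 with limma-voom. Groups did not overlap for 1 gene, but for 2 (all genes passing filterByExpr, and library totals alone), 3 (no filter) and 0 (10 times the background, where Ireb2 and Slc25a37 were not tested). Ireb2 overlapped among all genes passing filterByExpr, with no filter and at 3 times the background. Of the 47 other iron genes, 3 passed among all genes passing filterByExpr (4.97% of all genes). With factors of genes above background 3 passed (14.3% of all genes), Lrp1 and Steap1 as higher and Hmox2 as lower. Lrp1 and Steap1 lay at 2.94 and 2.1 times the background. With no filter 8 passed (5.38% of all genes), all lower, where the median of the genes above background was -0.54. DESeq2 passed 1 of the 26 it tested (4.72% of all genes).

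With 1 library left out, 0 iron genes and 0 other iron genes passed, the median was -0.041 to 0.22, Slc11a2 was -0.22 to 0.14, Steap3 -0.17 to 0.30, Slc40a1 -0.13 to 0.43 and Ftl1 -0.21 to 0.098. Without a change of sign, Tfrc was 0.018 (fasted 3 left out) to 0.39 (fasted 1), Fth1 0.051 (fasted 2) to 0.23 (control 2), Slc25a37 -0.19 (control 1) to -0.026 (control 3), Ncoa4 -0.39 (fasted 1) to -0.18 (fasted 3), Ireb2 0.21 (fasted 2) to 0.40 (fasted 3) and Aco1 0.32 (control 3) to 0.67 (fasted 1). With 2 libraries left in a group, 1 to 4 iron genes did not overlap, against 35.7% to 40.5% of all genes. The fit of all genes passing filterByExpr was planned, and leaving libraries out of it was added after seeing the data. With 1 library left out of that fit, 0 to 3 iron genes and 0 to 13 others passed. Of all genes, 0.0183% to 14.2% did, and Aco1 was -0.30 to 0.21. Without control library 3, Slc11a2 and Steap3 passed beside Ncoa4, and without fasted library 2, Ftl1 did. Log2 ratio differences ranged from -0.20 to 0.17 for Tfrc/Fth1, -0.26 to -0.09 for Ftl1/Fth1, -0.61 to -0.38 for Ncoa4/Fth1, -0.31 to 0.23 for Slc40a1/Fth1, -0.39 to 0.08 for Ireb2/Aco1 and -0.51 to -0.10 for Slc25a37/Tfrc. The cause of these changes was not tested.

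Deviations from the group mean correlated at r -0.17, 0.14 and -0.33 between same-numbered libraries, and at -0.17 to 0.30 between differently numbered ones. So few values cannot show whether the numbers pair the libraries. The replicate block passed 0 iron genes and 0 others, left the median at 0.15 and put Slc11a2 at 0.0081. For the ratios, the mean of same-numbered differences equals the difference of group means by arithmetic, so the block could not change them.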
